A study of Mus musculus with 8 samples.

Results

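The interferon regulatory factors are DNA-binding proteins, and 8 of them were measured here: Irf1, Irf2, Irf3, Irf4, Irf5, Irf7, Irf8 and Irf9. They were chosen by gene symbol, as every probe set annotated to one of these symbols and to no other. This gave 12 probe sets for the 8 genes, out of 17097 genes that had a probe set of their own. Irf3 had 3 probe sets, Irf4 and Irf8 had 2 each, and the other members had 1.

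The samples were progenitor cells sorted from lineage-depleted mouse bone marrow and lysed straight after the sort. Wild-type and knockout mice were compared, the study's title naming Nfil3 as the gene of interest, and all 4 groups carried an ID2-GFP reporter, which makes cells that express Id2 fluoresce. In each genotype 2 populations were taken, ALP (all-lymphoid progenitors) and prepro NK cells, called preproNK below, with 2 arrays a group and 8 in all. The labels gave neither the ages of the mice, nor how many were used for a sample, nor how the knockout allele was made. Replicate 1 of all groups was processed on one date and replicate 2 on another.

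All members share a DNA-binding domain that recognises GAAA repeats, as found in the interferon-stimulated response element. Irf3, Irf5 and Irf7 are switched on by phosphorylation downstream of nucleic acid sensors and then induce interferons. Irf9 joins Stat2 to carry the interferon receptor signal to the nucleus, while Irf1 is an interferon-induced activator and Irf2 its antagonist. Irf4 and Irf8 bind DNA mostly together with ETS or AP-1 partners and act in lymphocytes and dendritic cells. In mice, Irf8 is needed for dendritic cell and monocyte development and is known as a gene of progenitors that keep dendritic potential.

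The control regions of the members are shown for Irf8, whose level differed between the populations, and for Irf1, which carries the same kind of motif but whose level did not pass the test. The windows run from 250 bases before to 50 bases after the gene's start in RefSeq's GRCm38.p6 annotation, both on the plus strand. Capitals mark matches to TTCNNNGAA, the interferon-gamma-activated site motif, called GAS.
Irf8, chr8:120736108-120736407: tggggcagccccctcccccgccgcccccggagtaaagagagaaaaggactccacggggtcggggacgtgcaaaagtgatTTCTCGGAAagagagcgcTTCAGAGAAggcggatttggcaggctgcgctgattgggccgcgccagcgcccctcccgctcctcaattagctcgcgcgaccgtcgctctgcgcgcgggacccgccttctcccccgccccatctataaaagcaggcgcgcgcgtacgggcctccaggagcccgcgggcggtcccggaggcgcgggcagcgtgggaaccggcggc
Irf1, chr11:53769764-53770063: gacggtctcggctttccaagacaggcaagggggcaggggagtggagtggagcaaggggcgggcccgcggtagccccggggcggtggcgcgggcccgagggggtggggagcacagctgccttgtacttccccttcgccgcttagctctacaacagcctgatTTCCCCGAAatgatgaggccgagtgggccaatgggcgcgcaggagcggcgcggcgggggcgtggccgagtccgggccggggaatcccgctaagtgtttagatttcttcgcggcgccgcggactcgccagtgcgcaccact
The Irf8 gene spans chr8:120736358-120756694. Its window held this motif at positions -171 and -153 from the start, and the Irf1 window at -90. RefSeq windows were found for 8 of 8 members, 11 windows in all, and both strands were searched for 4 motifs. Matches to any of them were found in 3 of the 11, the third being a window of Irf2 with a GAS match at -224, an ISRE core (GAAANNGAAA) at -241 and an ETS-IRF composite (GGAANNGAAA) at -247, the last pair overlapping. None of the 11 held TTANGTAA, a form of the site that Nfil3 binds. Of 32851 promoter windows in the same table, 8.3% held the GAS motif, 3.44% the ISRE core, 2.72% the composite and 2.32% the Nfil3 site. A match here describes letters in a window, and binding was not measured.

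Before the members are compared, some properties of the arrays matter. Nfil3 was 6.89 and 5.50 in wild-type ALP (values are deposited log2 levels, replicate 1 first) and 3.41 and 4.15 in knockout ALP. In preproNK it was 4.75 and 4.74 in wild-type cells and 3.84 and 3.57 in knockout cells, so the knockout arrays were lower in both populations, although neither difference passed the test, and the labels do not say which exons the allele lacks. Id2 was 6.83 and 6.94 in wild-type ALP, 6.16 and 5.94 in knockout ALP, 10.68 and 8.37 in wild-type preproNK, and 10.48 and 9.86 in knockout preproNK, higher on every preproNK array. The labelled cell types were checked against their markers, and 5 of 7 tested early lymphoid genes were called lower in preproNK and 5 of 9 NK genes higher, with 1 NK gene, Cd244a, lower. Of all tested genes 1.61% were called lower and 1.77% higher. Also 6 of 7 T cell genes were called higher in preproNK, their summed level on the linear scale running from 438.7 to 4176.8 there against 134.2 to 190.6 in ALP. Some of these calls were lost when 1 ALP or knockout preproNK array was left out. Cd244a, Id2 and Mef2c were called in 11 of 16 alternatives each, Cd3g in 12 and Cd5 in 10. Dntt, Cd34, Flt3, Sox4, Il2rb, Tbx21 and Cd3e were called in 16 of 16. Apart from Id2, these genes were named by how many alternatives kept their call. Wild-type preproNK replicate 2 stood apart, with a standard deviation over probe sets of 1.39 against 1.55 to 1.88 on the other 7 arrays, 310 genes above a level of 8 against 682 to 1498, and a correlation of 0.621 with its own replicate against 0.747 with wild-type ALP replicate 2. On that array Irf1, Irf3, Irf7 and Irf9 lay below all 7 others, Irf4 lay above all 7, and Irf2, Irf5 and Irf8 lay within their range.

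Across the family, 1 gene separated the populations. Irf8 was 7.79-fold lower in preproNK than in ALP (95% CI 4.32 to 14.03) when both genotypes were averaged, and none of the other 6 tested members passed the test between populations. No member passed the test between knockout and wild-type cells in either population. Irf2, read by a single probe set, lay below the array median on all 8 arrays, between 2.34 and 3.57, and was not tested.

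**Figure D1:**
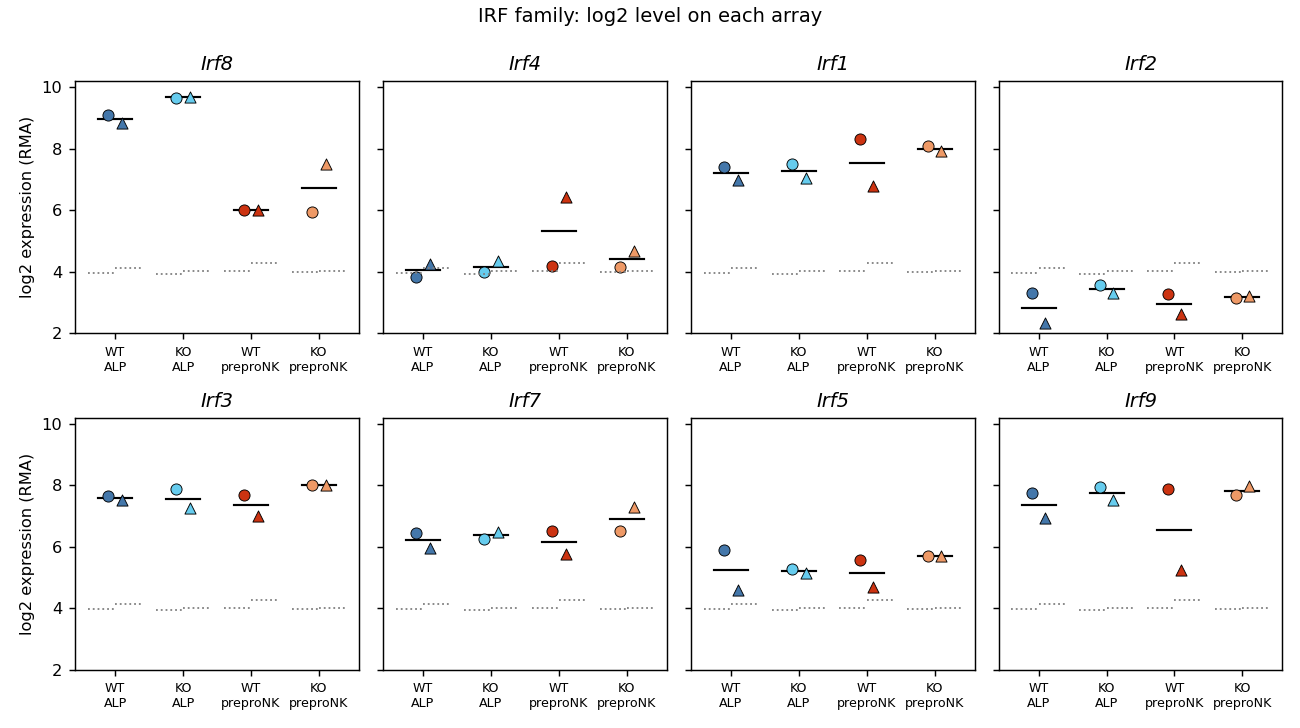
Deposited log2 level (RMA, y axis) of the 8 members on each of the 8 arrays, one panel a gene, for the probe set with the highest mean. Circles are replicate 1 and triangles replicate 2, bars are means of the 2 arrays of a group and dotted lines the median of all probe sets on that array. The 4 ALP arrays lie above all 4 preproNK arrays for Irf8, and wild-type preproNK replicate 2 sits apart for Irf4 and Irf9.

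Irf8 read 9.11 and 8.82 in wild-type ALP and 9.65 and 9.69 in knockout ALP. It read 6.01 and 5.99 in wild-type preproNK and 5.92 and 7.49 in knockout preproNK. All 4 preproNK arrays thus lay below all 4 ALP arrays, the gap between the populations being 1.33, and the highest preproNK value came from knockout replicate 2. In order of their means, knockout ALP stood at 9.67 ± 0.03 (SD, n = 2), wild-type ALP at 8.97 ± 0.20, knockout preproNK at 6.71 ± 1.11 and wild-type preproNK at 6.0 ± 0.01. Only the step from the ALP groups to the preproNK groups passed a test, since neighbours within a population did not.

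The mean difference, preproNK minus ALP, was -2.96 on the log2 scale (SE 0.37, 95% CI -3.81 to -2.11, limma, adjusted p = 0.0076 over 11583 genes). A gene was called where its adjusted p was under 0.05. Without wild-type preproNK replicate 2 the difference was again -2.96 (SE 0.40, adjusted p = 0.00422). Irf8 was 1 of 7 tested members called lower, against 1.61% of all tested genes, and 0 of 7 were called higher, against 1.77%. It was also the 1 member of 7 whose groups did not overlap with preproNK below ALP, against 6.97% of all tested genes. The RNA came from sorted bulk samples, so fewer cells with Irf8 and less Irf8 RNA per cell cannot be told apart. The T cell list rose from ALP to preproNK alongside the fall of Irf8, and the part of T-lineage RNA in that fall was not tested.

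The difference was also read within each genotype. In wild-type cells it was -2.97 (SE 0.52), with an adjusted p of 0.14 that became 0.0466 when the processing date was a block, so that 0 of 7 members were called without the block and 1 of 7 with it, against 0.0604% of all genes called lower without it and 0.311% with it. In knockout cells it was -2.96 (SE 0.52, adjusted p = 0.0375), 1 of 7 members against 0.535% of all genes. The knockout call was lost without any one of 6 arrays, both ALP arrays of either genotype and both knockout preproNK arrays, the adjusted p then lying between 0.0699 and 0.306. Its size was -2.17 without knockout preproNK replicate 1 and -3.74 without replicate 2. The test of the difference between the genotypes gave 0.01 (SE 0.73, 95% CI -1.69 to 1.71, adjusted p = 1), an interval wide enough to hold a difference of more than 1 log2 unit either way.

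The other Irf8 probe set showed the same separation. It read 8.39 and 8.78 in wild-type ALP, 8.84 and 8.89 in knockout ALP, 4.82 and 4.08 in wild-type preproNK, and 4.82 and 6.22 in knockout preproNK. Again all preproNK arrays lay below all ALP arrays, and knockout preproNK replicate 2 was again the highest of them. Its difference was -3.74 (SE 0.37, adjusted p = 0.00542 when every probe set was tested as a feature of its own). Within genotypes it was -4.14 in wild-type and -3.35 in knockout cells (SE 0.52 each). The test of the difference between the genotypes gave 0.79 (SE 0.74) here, so the value of 0.01 belongs to the brighter probe set only. Over the 8 arrays the 2 probe sets correlated with r = 0.982, as a description, since they read the same arrays.

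**Figure D2:**
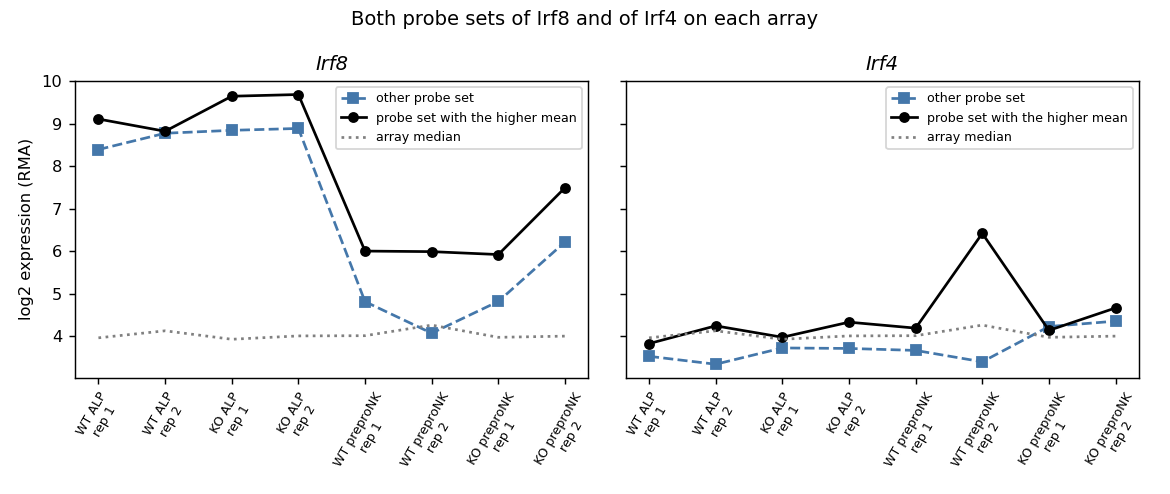
Log2 level (RMA, y axis) of both probe sets of Irf8 (left) and of Irf4 (right) on the 8 arrays (x axis); circles are the probe set with the higher mean, squares the other one and the dotted line the median of all probe sets on the array. The Irf8 probe sets drop together from ALP to preproNK, while of the Irf4 probe sets one reaches 6.42 on wild-type preproNK replicate 2, where the other reads 3.40.

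Knockout and wild-type cells differed in Irf8 by 0.70 in ALP (SE 0.52, adjusted p = 1), the knockout being higher by 0.54 in replicate 1 and by 0.86 in replicate 2. Over all tested genes, 64.1% were higher in knockout ALP in replicate 1 and 52.4% in replicate 2. Both knockout ALP arrays lay above both wild-type ones. The share of all genes for which this held was not computed, so that order is not read as a result about Irf8. The 95% CI of the Irf8 difference ran from -0.50 to 1.90. The other probe set gave a smaller difference in ALP, 0.28 (SE 0.52). In preproNK the difference on the brighter probe set was 0.71 (SE 0.52, adjusted p = 0.613). It was made up of -0.08 in replicate 1 and 1.5 in replicate 2, so the groups overlapped and 1 array decided the mean. Without knockout preproNK replicate 2 it was -0.07, and with quantile normalization repeated 0.28. On the other probe set the preproNK difference was 1.07 (SE 0.52, limma, adjusted p = 0.628). It was made up of 0.005 in replicate 1 and 2.14 in replicate 2, and the groups lay 0.005 apart. On knockout preproNK replicate 2 the dendritic cell list had a summed level of 2161.7 against 840.5 on replicate 1, with 11 against 7 of 14 genes above the array median. Its widest rises were those of class II genes. Cd74, the class II invariant chain, was 8.10 against 5.49. The class II antigen-presenting chains H2-Eb1 and H2-Aa were 8.44 against 5.63 and 8.21 against 6.26, H2-Aa being picked after its values were seen. Xcr1, Ciita, Naaa and Ly6d, named because they went the other way, were lower there, and the list's other genes were higher. In the monocyte and granulocyte list, Lyz2 was 9.47 against 8.20 and Csf1r 6.2 against 5.2, both picked after their values were seen. Mpo was 7.2 against 9.4, Ctsg 4.4 against 7.1 and Elane 5.1 against 7.0, named because they went the other way. S100a8 and S100a9 were lower too, and the other genes of that list were higher. That list's summed level was 1235.4 against 1459.8. The part of these genes in the Irf8 level was not tested.

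Irf4, the closest relative of Irf8 and a factor of activated lymphocytes and plasma cells, did not pass a test. Its brighter probe set read 3.83 and 4.25 in wild-type ALP, 3.98 and 4.33 in knockout ALP, 4.19 and 6.42 in wild-type preproNK, and 4.14 and 4.67 in knockout preproNK. These values were near the array medians of 3.93 to 4.27 except on wild-type preproNK replicate 2. The mean difference between populations was 0.76 (SE 0.48, adjusted p = 0.613), and that between knockout and wild-type preproNK was -0.90 (SE 0.68, adjusted p = 0.613). The other probe set read 3.67 and 3.40 in wild-type preproNK and 4.23 and 4.36 in knockout preproNK, so there the knockout arrays were the higher ones, by 0.76 (SE 0.32, adjusted p = 0.628). The probe sets thus gave opposite signs for the same comparison, and their correlation over the 8 arrays was -0.212.

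Among the factors of the sensor pathways, Irf3, Irf5 and Irf7, none passed the test between populations. Irf3, which is present in most cells and activated by phosphorylation, read 7.67 and 7.53 in wild-type ALP, 7.88 and 7.26 in knockout ALP, 7.69 and 7.0 in wild-type preproNK, and 8.02 and 8.0 in knockout preproNK. Its populations overlapped, with a difference of 0.10 (SE 0.28, adjusted p = 0.968), and its other 2 probe sets gave 0.13 and -0.10. Irf7, the interferon-induced amplifier of type I interferon, read 6.45 and 5.96 in wild-type ALP, 6.27 and 6.48 in knockout ALP, 6.52 and 5.77 in wild-type preproNK, and 6.51 and 7.30 in knockout preproNK. The highest of these came from knockout preproNK replicate 2, and the difference between populations was 0.24 (SE 0.32, adjusted p = 0.888). Irf5, which acts below Myd88 in myeloid cells, ranged from 4.59 to 5.91 in ALP and from 4.70 to 5.71 in preproNK, with a difference of 0.19 (SE 0.37, adjusted p = 0.938).

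The 2 tested factors of the interferon response itself, Irf1 and Irf9, gave the same result. Irf1 read 7.42 and 6.97 in wild-type ALP, 7.49 and 7.03 in knockout ALP, 8.32 and 6.77 in wild-type preproNK, and 8.08 and 7.93 in knockout preproNK. Of its preproNK arrays 3 were above all 4 ALP arrays, and wild-type replicate 2 was below them, leaving a difference of 0.55 (SE 0.38, adjusted p = 0.669). With wild-type preproNK replicate 2 left out and the processing date as a block, it was 0.85 (adjusted p = 0.0354). Irf9 read 7.76 and 6.95 in wild-type ALP, 7.96 and 7.52 in knockout ALP, 7.89 and 5.23 in wild-type preproNK, and 7.68 and 7.97 in knockout preproNK. The 5.23 on wild-type preproNK replicate 2 was the lowest value of the gene, and the difference between populations, -0.36 (SE 0.56, adjusted p = 0.91), became 0.31 without that array.

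In the comparison of knockout with wild-type ALP, 0 of 7 members were called, against 0.0% of all tested genes. Apart from Irf8, the differences lay between -0.05 and 0.38 (SE 0.40 to 0.79, all adjusted p = 1), and over all genes 5 had an unadjusted p under 0.05, which is 0.0432%. That share is far below what a threshold of 0.05 would give if no gene differed, so the test was strict here. Nfil3 itself, at -2.41 (SE 0.52), was not called. The lack of calls in ALP therefore does not show that the genotypes are alike. The median of the 7 tested members was 0.12 against 0.07 over all genes.

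In preproNK, too, 0 of 7 members were called between genotypes, against 0.0% of all tested genes, of which 625, or 5.4%, had an unadjusted p under 0.05. The differences, knockout minus wild type, were 1.27 for Irf9 (SE 0.79), 0.76 for Irf7 (SE 0.45), 0.66 for Irf3 (SE 0.40), 0.57 for Irf5 (SE 0.52) and 0.46 for Irf1 (SE 0.54). Their adjusted p-values lay between 0.613 and 0.681. With quantile normalization repeated, which moved the median of all genes from 0.15 to -0.05, Irf3 differed by 0.0001, Irf7 by 0.36, Irf9 by 0.98 and Irf1 by -0.17. Within replicate 1 only 2 of 7 members were higher in the knockout, against 51.2% of all tested genes (median -0.05, against 0.01 over all genes). Within replicate 2, 6 of 7 were, against 57.6% (median 1.16, against 0.29). The wild-type arrays gave different answers: without wild-type preproNK replicate 1, Irf9 was called higher in the knockout by 2.60 (adjusted p = 0.0141) and Irf4 lower by -2.02 (adjusted p = 0.0206), when 21.9% of all genes were called, whereas without wild-type preproNK replicate 2, Irf9 differed by -0.06, Irf4 by 0.21 and Irf1 by -0.32. The interaction of genotype and population was called for 0 of 7 members, against 0.0% of all genes, of which 183, or 1.58%, had an unadjusted p under 0.05.

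**Figure D3:**
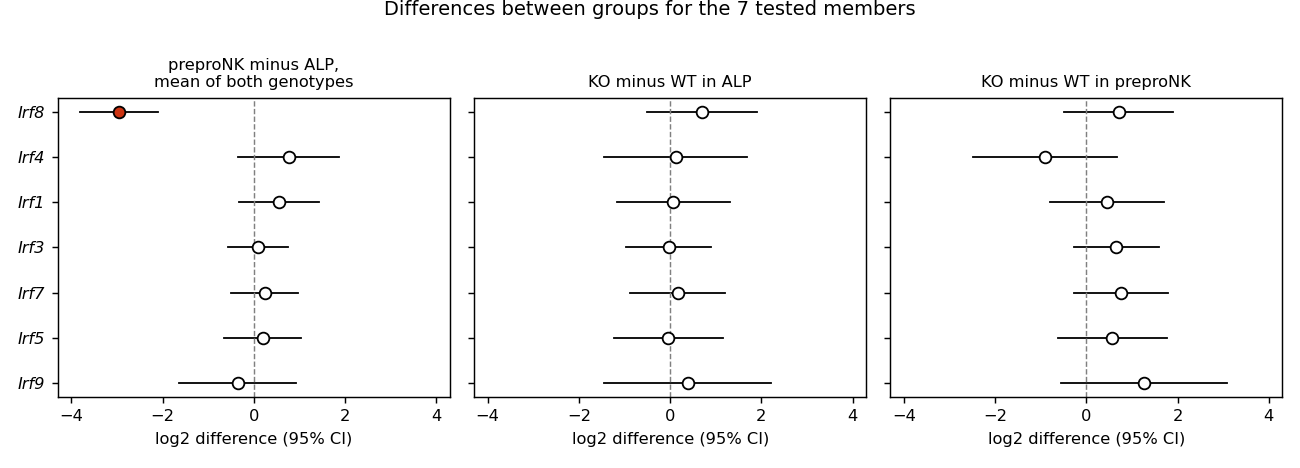
Log2 difference (x axis) with its 95% CI from the limma fit for the 7 tested members (y axis), for preproNK minus ALP averaged over genotypes (left) and for knockout minus wild type in ALP (middle) and in preproNK (right). The filled point, Irf8 at -2.96, is the 1 called difference, and every other interval includes 0.

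The genes around the family were described by lists of known components, each tested in the same fit over all genes. Of the interferon receptors and their JAK-STAT mediators, 0 of 8 tested genes were called between populations (median 0.35, against -0.01 over all genes), and 1 of 8 was called higher with the processing date as a block, when 3.77% of all genes were called higher and 3.58% lower. Ifngr1, a chain of the interferon-gamma receptor, was 7.52 and 6.45 in wild-type ALP, 7.80 and 6.90 in knockout ALP, 8.50 and 6.74 in wild-type preproNK, and 10.33 and 10.12 in knockout preproNK. Both knockout preproNK arrays were the highest of the 8. Its difference between genotypes in preproNK was 2.61 (SE 0.66, adjusted p = 0.521), and Stat2, a partner of Irf9, differed by 1.27 (SE 0.48, adjusted p = 0.613).

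Of the sensors and kinases upstream of Irf3, Irf5 and Irf7, 2 of 15 were called lower in preproNK and 0 higher (median 0.00), against 1.61% and 1.77% of all tested genes. With the block 2 were called lower and 1 higher, against 3.58% and 3.77%. Unc93b1, the chaperone that carries nucleic acid-sensing Toll-like receptors to endosomes, read 8.84 and 8.66 in wild-type ALP, 9.08 and 8.80 in knockout ALP, 6.65 and 6.48 in wild-type preproNK, and 6.87 and 7.73 in knockout preproNK. All its preproNK arrays lay below all ALP arrays, and it fell by 1.91 (SE 0.28, adjusted p = 0.0143). Tlr7, an endosomal sensor of single-stranded RNA, fell by 1.76 (SE 0.36, adjusted p = 0.0433). Leaving out 1 array of wild-type ALP (replicate 1), of knockout ALP or of knockout preproNK ended the call of both genes, with adjusted p-values of up to 0.0973 for Unc93b1 and 0.233 for Tlr7, and leaving out wild-type ALP replicate 2, or the filter on dim probe sets, ended that of Tlr7 too. Between genotypes 0 of 15 were called in either population. In preproNK the kinase Ikbke differed by 1.09 (SE 0.53) and the adaptor Myd88 by 0.66 (SE 0.33), each at an adjusted p of 0.613. In ALP the smallest p-values belonged to Tlr9 (0.48, SE 0.48) and Tlr4 (-0.41, SE 0.42).

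Of 29 tested interferon-stimulated genes, the classic targets of the family, 1 was called higher in preproNK and 0 lower (median 0.00). Of all tested genes 1.77% were called higher and 1.61% lower. With the block 2 of the 29 were called higher and 1 lower, against 3.77% and 3.58% of all genes. The 1 gene was Zbp1, a sensor of left-handed nucleic acid, which read 4.61 and 4.21 in wild-type ALP, 4.37 and 3.91 in knockout ALP, 7.90 and 6.34 in wild-type preproNK, and 8.73 and 8.67 in knockout preproNK. Its 4 preproNK arrays lay above all ALP arrays, by a mean of 3.63 (SE 0.38, adjusted p = 0.00434), with an adjusted p of 0.0528 as the highest of 16 alternatives, without knockout preproNK replicate 1. Between genotypes 0 of 29 were called in either population. In preproNK, 24 of 29 were higher in the knockout, against 57.1% of all tested genes (median 0.77, against 0.15 over all genes). Without wild-type preproNK replicate 2 this became 19 of 29 (median 0.16, against 0.01). T cell genes were higher in the knockout at the same time, with summed levels of 3553.3 and 4176.8 in knockout preproNK against 438.7 and 1372.3 in wild-type preproNK, and their part in these differences and in that of Ifngr1 was not tested. Zbp1 differed between genotypes in preproNK by 1.58 (SE 0.53) and Oas3, an antiviral oligoadenylate synthetase, by 1.35 (SE 0.49), each at an adjusted p of 0.613. In ALP the smallest p-values belonged to Irgm1 (0.69, SE 0.45) and Ifit3 (-0.70, SE 0.49), each at an adjusted p of 1. Of the JAK-STAT list 8 of 8 were higher in knockout preproNK (median 0.91), against 57.1% of all tested genes (median 0.15). Without wild-type preproNK replicate 2 this became 4 of 8 (median 0.00).

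Of 13 DNA-binding partners of Irf4 and Irf8 and related factors, 1 was called higher in preproNK and 0 lower, against 1.77% and 1.61% of all tested genes. With the block 3 were called higher and 2 lower, against 3.77% and 3.58%. The 1 gene was Ikzf3, a zinc finger factor of lymphocytes, which read 4.11 and 4.65 in wild-type ALP, 3.98 and 4.16 in knockout ALP, 10.51 and 6.66 in wild-type preproNK, and 10.64 and 10.56 in knockout preproNK. It rose by 5.36 (SE 0.73, adjusted p = 0.0105), a call lost without knockout ALP replicate 1 or without either knockout preproNK array, the highest adjusted p being 0.0839. Spi1 (PU.1), the ETS factor that recruits Irf4 and Irf8 to composite sites and a gene named here after its values were seen, was 7.36 and 7.05 in wild-type ALP, 7.56 and 7.30 in knockout ALP, 5.21 and 6.20 in wild-type preproNK, and 5.08 and 6.33 in knockout preproNK. Its preproNK arrays lay below its ALP arrays, with a difference of -1.61 (SE 0.37, adjusted p = 0.067) that missed the threshold and was called with the block. Between genotypes 0 of 13 were called in either population, Batf3 differing by -0.73 (SE 0.49) and Ikzf3 by 2.02 (SE 1.04) in preproNK.

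Dendritic cell genes were followed because Irf8 stands for dendritic potential. Of 11 tested, 1 was called lower in preproNK and 0 higher (median -0.21), against 1.61% and 1.77% of all tested genes. It was Tcf4, the E protein that specifies plasmacytoid dendritic cells, which fell by 3.53 (SE 0.59, adjusted p = 0.0207), from 8.18 and 6.91 in wild-type and 8.44 and 7.81 in knockout ALP to 5.78 and 3.44 in wild-type and 3.36 and 4.63 in knockout preproNK. The call was lost without wild-type ALP replicate 1, either knockout ALP array or either knockout preproNK array, with an adjusted p of up to 0.138. Summed levels of the list overlapped between populations, at 1151.4 to 2345.4 in ALP and 605.0 to 2161.7 in preproNK. Xcr1, a receptor that defines cross-presenting dendritic cells, was chosen after its values were seen and was at 3.38 to 3.98 in ALP, near the array medians. In ALP the class II genes H2-Eb1 and Cd74 were lower in the knockout by -1.22 (SE 0.82) and -1.15 (SE 0.82), each at an adjusted p of 1. Irf8 was 0.70 higher there by its brighter probe set and 0.28 higher by the other. The B cell list, of a lineage that also expresses Irf8, was lower in summed level in preproNK, at 108.8 to 190.0 against 215.8 to 274.5 in ALP. Of its 6 genes 2 to 5 were above the array median in preproNK, against 4 in ALP. Of its 5 tested genes 1 was called lower, against 1.61% of all tested genes. It was the adaptor gene Blnk, by -3.26 (SE 0.28, adjusted p = 0.00197). Blnk lay at 5.95 to 6.89 in ALP and at 3.1 to 3.5 in preproNK. The median of the 5 was -0.13, against -0.01 over all genes. Cd79b, named after its values were seen, was 5.72 and 4.95 in wild-type preproNK. In knockout preproNK it was 6.90 and 6.83, above its ALP range of 6.21 to 6.64. A sum without Blnk was not computed, and the list's part in the Irf8 level was not tested. The monocyte and granulocyte list was called for 0 of 10 genes between populations, its summed level lying between 1012.0 and 2196.8 in ALP and between 429.3 and 1459.8 in preproNK.

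The genes most like Irf8 over the 8 arrays were found by Pearson correlation across all tested genes, as a description of points that share arrays and 2 populations. In this measure 207 genes had an r above 0.9. The 8 highest were Unc93b1 (r = 0.987), the non-coding RNA Zfas1 (0.985), Pa2g4 (0.985), Fnip2 (0.981), Rogdi (0.979), Fgd2 (0.978), the glutamate receptor subunit gene Gria3 (0.977) and Marcksl1 (0.976). Marcksl1 had the widest change of these, from 6.80 to 8.64 in ALP down to 3.26 to 4.66 in preproNK. The 3 most opposite genes were C430002N11Rik (-0.966), the cytokine lymphotoxin alpha gene Lta (-0.965) and the receptor tyrosine kinase gene Ret (-0.962). Ret ranged from 3.52 to 3.98 in ALP and from 4.93 to 6.15 in preproNK.

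**Figure D4:**
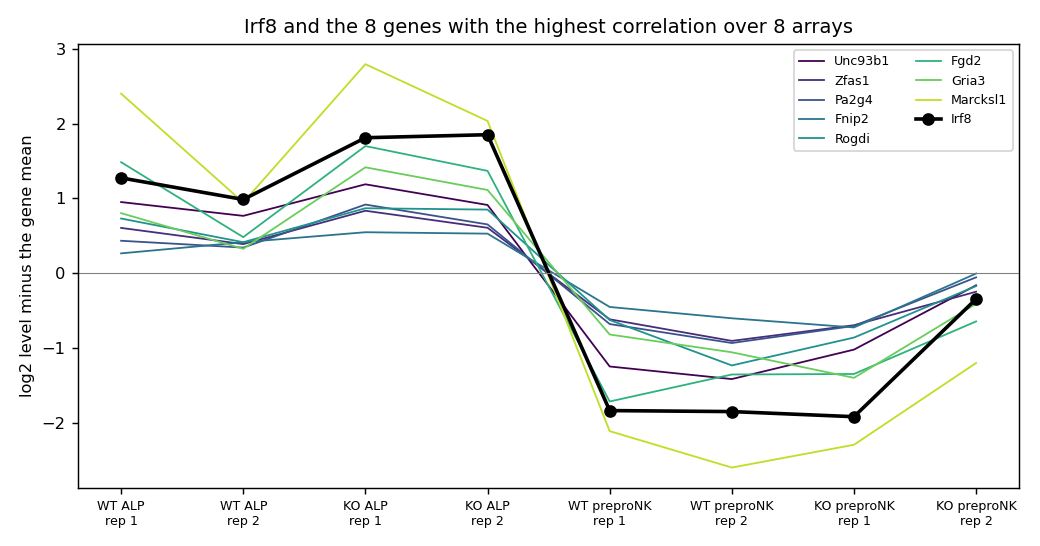
Log2 level minus the gene's mean over the 8 arrays (y axis) for Irf8 (thick line with points) and the 8 genes with the highest correlation with it, on each array (x axis). All 9 lines drop from the 4 ALP to the 4 preproNK arrays, and among preproNK each is highest on knockout replicate 2.

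Within the family the correlations of Irf8 with the other 6 tested genes lay between -0.485 (Irf4) and 0.332 (Irf9) over the 8 arrays. The step of Irf8 between populations weighs heavily in these values, and correlations within a population were not computed. Among preproNK arrays, Irf8 and Irf7 were both highest on knockout replicate 2, at 7.49 and 7.30. Irf1, Irf3, Irf5, Irf7 and Irf9 varied together, with r from 0.667 to 0.805 in their 10 pairs and from 0.464 to 0.79 without wild-type preproNK replicate 2. Irf4 ran against the others, with r between -0.893 and -0.381, and its one high value lay on that array. These correlations share the arrays' own properties, such as the narrow range of values on that array, whose part in them was not tested.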

How the data were processed

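Total RNA of 8 sorted samples was amplified, labelled with biotin and hybridised to 1-colour Affymetrix arrays, per the labels' protocols. The deposited values are log2 expression levels per probe set, which the authors computed with the programs RMA and Partek according to the submitters' processing notes, with versions not given in the sources used here. The deposited distributions were not equal over the 8 arrays (medians of 3.93 to 4.27), so quantile normalization was repeated as an alternative. Levels of single genes were not compared with each other. Levels were set side by side only to pick the brightest probe set of a gene and against the array median. Summed levels add the linear levels of a list's genes, so bright probe sets weigh most in them.

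Of 45141 probe sets, 28898 had 1 gene symbol in the platform annotation, 551 had several and 15692 were not listed with a gene. Where a gene had several, the brightest on average was used, giving 17097 genes. The 11583 genes above the array median on at least 2 arrays were tested. All 8 arrays entered 1 linear model that had 4 group means (lmFit and eBayes, limma 3.58.1, R 4.3.3), with 6 two-sided comparisons and Benjamini-Hochberg adjustment over all tested genes in each. The script was tested on simulated data with 200 changed genes, in the comparison of populations averaged over genotypes. There 57 of 100 genes changed by 2 log2 units were called, and 91 of 100 changed by 4, with 10 false calls. The other comparisons were not checked in this way. The simulated arrays had independent noise, of equal spread on all arrays for a gene. The real arrays shared processing dates and included 1 with a narrow range of values, so these counts need not hold for them. Tables and figures were made with Python 3.11.15, pandas 2.3.3 and matplotlib 3.10.9. Promoter windows and loci came from RefSeq (GRCm38.p6).

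Nothing in the labels says that replicates came from separate animals, so p-values measure the spread between these samples, and their number limits the precision. Replicate numbers pair the samples, since the series' design gives each number its own processing date. The deviations of replicate 1 from the group means correlated across genes with r from 0.149 to 0.807 over the pairs of groups. Alternatives were the date as a block, each array left out, 2 other filters, every probe set as a feature, repeated quantile normalization, array weights and trended robust eBayes. Leaving out both wild-type replicate 2 arrays together was added after seeing the data.

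The members, gene lists and tests were chosen with earlier results of these data known. Named were all members, Nfil3, Id2, the genes most and least correlated with Irf8, and from each list the largest called changes between populations or the smallest p-values between genotypes. Where a gene was named outside this rule, the text says so.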

Additional observations from a re-analysis of the deposited data

Results flagged for a closer look

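For Irf4, the knockout effect ran in opposite directions in the 2 populations in every replicate. In ALP the knockout was higher by 0.15 in replicate 1 and 0.09 in replicate 2, and in preproNK it differed by -0.05 and -1.75. The interaction, the effect in preproNK minus that in ALP, was -1.02 (SE 0.96, 95% CI -3.24 to 1.2, limma, adjusted p = 1), so it did not pass the test. The size came from wild-type preproNK replicate 2, and the other Irf4 probe set gave an interaction of 0.48 (SE 0.46, adjusted p = 1), of the opposite sign.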

How the results depend on the processing

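The lower Irf8 level in preproNK kept its call and direction under all 17 alternatives, with differences of -3.35 to -2.57 and adjusted p-values of 8.46e-07 to 0.0496. No member was called between genotypes in ALP, or for the interaction, under any of the 17. With the replicate block 1 of 7 members was called in wild-type cells between populations (Irf8, adjusted p = 0.0466), against 0.311% of all genes called lower, and the block changed no other member's call. That count was also 1 with the block and no wild-type preproNK replicate 2 array (3.72% of all genes called), and 1 without both wild-type replicate 2 arrays (3.97%), and it ran from 0 to 3 when single arrays were left out, the 3 being Irf4, Irf8 and Irf9 without wild-type preproNK replicate 1 (7.11%). In knockout cells, where the call was also lost without some single arrays, the count was 0 without a filter on dim probe sets (Irf8, adjusted p = 0.0569). Of all genes 0.907% were called then. The count was 0 with trended robust eBayes too (Irf8, adjusted p = 0.0545), against 1.86% of all genes. Averaged over genotypes it was 2 with the block and no wild-type preproNK replicate 2 array (14.3%), Irf1 joining Irf8, and 1 to 2 with single arrays left out, Irf4 joining (1.32, adjusted p = 0.0278) without wild-type preproNK replicate 1 (9.13%). Between genotypes in preproNK it was 0 to 2, the 2 without that array (21.9%).

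Uncalled differences changed sign under some settings, and the cause was not tested. Between knockout and wild-type ALP, Irf1 was -0.16 with quantile normalization repeated, and without both wild-type replicate 2 arrays Irf1 was -0.15, Irf7 -0.078 and Irf9 -0.025. In preproNK, Irf1 was -0.17 with quantile normalization repeated and -0.14 with the block and no wild-type preproNK replicate 2 array, and without both wild-type replicate 2 arrays Irf1 was -0.32, Irf4 0.21 and Irf9 -0.061. Between populations Irf9 was 0.23 with the block and without that preproNK array, and 0.11 without both arrays. The Irf8 interaction was -0.18 with quantile normalization repeated and -0.22 with the block and without that preproNK array. With single arrays left out, the differences between genotypes in ALP ran from -0.16 to 0.30 for Irf1, -0.34 to 0.28 for Irf3, -0.091 to 0.33 for Irf4, -0.70 to 0.61 for Irf5, -0.078 to 0.41 for Irf7 and -0.025 to 0.79 for Irf9. Those in preproNK ran from -0.32 to 1.23 for Irf1, -2.02 to 0.21 for Irf4, -0.075 to 1.5 for Irf8 and -0.061 to 2.60 for Irf9. Those between populations ran from -0.077 to 0.27 for Irf3, -0.14 to 0.52 for Irf5 and -1.02 to 0.31 for Irf9, and the Irf8 interaction from -0.77 to 0.80. Where a group was left with 1 array, that array was assumed to vary like the other groups. Signal limits Irf2 and Irf4, which lay below or near the array medians.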
